A study of Mus musculus with 24 samples.

Results

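The MHC class I antigen presentation genes are 10 genes whose products cut, carry and display the peptides that cytotoxic T cells read on the cell surface. They were taken by name from the deposited gene table, which holds 55487 genes, and all 10 were found there once and passed the filter on low counts. The heavy chains *H2-K1* and *H2-D1* bind the peptide and pair with the light chain *B2m*. *Tap1* and *Tap2* form the transporter that moves peptides into the endoplasmic reticulum, and *Tapbp*, tapasin, holds the empty heavy chain at that transporter. *Psmb8*, *Psmb9* and *Psmb10* encode the catalytic subunits of the immunoproteasome, which take the places of *Psmb5*, *Psmb6* and *Psmb7* in newly built proteasomes. *Nlrc5* encodes a transactivator that is recruited to class I promoters.

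The 24 libraries were made from polyadenylated RNA of mouse embryonic fibroblasts (MEFs) of 2 genotypes, WT and *tfeb tfe3* double knockout (DKO), with 4 libraries for each genotype and treatment. TFEB and TFE3 are transcription factors of lysosomal genes. Each genotype was given DMSO, the vehicle, torin1, which inhibits the kinase MTOR, or MK-8722, which activates the kinase AMPK, and the labels give neither the dose nor the time. The study compared the genotypes under these drugs to find genes that depend on TFEB and TFE3. The labels give the passage of the cells, which was 7, 8, 9 and 11 in WT and 8, 9, 10 and 11 in DKO, with 1 library per treatment at each passage. The labels do not say whether the 3 libraries of a passage came from separate cultures, so p-values measure the spread between these libraries. WT and DKO MEFs are separate lines that came from another laboratory, so a difference between the genotypes and a difference between the lines cannot be told apart. The mouse strain of the lines is not given in the sources used here. The *H2* genes differ in sequence between strains, and how well the reference strain's copies catch the reads of these cells was not tested.

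Library totals ranged from 24668921 to 33332562 estimated counts, and the RNA integrity number from 7.9 to 9.9. *Tfeb* stood at 14 to 25 CPM (counts scaled to library size, with library sizes adjusted by TMM) in the WT libraries and at 1.34 to 2.65 CPM in the DKO libraries. *Tfe3* mRNA stood at 119 to 122 CPM in WT and 121 to 126 CPM in DKO under DMSO, which overlapped. It was higher in DKO under torin1, at 89.4 to 95.0 against 77.4 to 83.2 CPM, and under MK-8722, at 115 to 118 against 94.6 to 101 CPM. The level of *Tfe3* mRNA was thus not reduced in DKO. Of 8 fibroblast marker genes, all 8 reached 1 CPM in at least 1 library. Their summed level was 6570 to 8070 CPM in WT of passages 7 to 9 and 9390 to 9790 CPM in WT of passage 11. In DKO it was 5710 to 8170 CPM. The fibroblast marker *Postn* was at 0.0903 to 0.587 CPM in the WT libraries and reached 2.64 CPM in DKO. The fibroblast marker *Thy1* was at 0 to 0.0385 CPM in the DKO libraries. Of 8 macrophage genes, *Ptprc*, *Adgre1*, *Csf1r*, *Itgam*, *Tyrobp* and *Aif1* stayed below 1 CPM in all libraries, and the summed level was 7.27 to 11.4, 9.04 to 11.7 and 6.90 to 11.4 CPM in the same 3 sets. The macrophage gene *Cd14* stood at 5.76 to 10.7 CPM, and *Fcgr3* reached 0.358 CPM in WT and 1.47 CPM in DKO. The summed level of 5 lymphocyte genes, *Cd3e* and *Ms4a1* among them, was at most 0.213 CPM. The 3 WT libraries of passage 11 stood apart from the other WT libraries, and this was known before the present tests were chosen. Each comparison below is therefore given with and without those 3 libraries.

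As background, cells that sense interferon raise the class I pathway through interferon regulatory factors, and NLRC5 acts together with the RFX complex, CREB or ATF1 and NF-Y on a conserved set of boxes in class I promoters. Fibroblasts carry class I molecules at a low basal level and raise them when interferon reaches them. The heavy chains, *Tapbp*, *Tap1*, *Tap2*, *Psmb8* and *Psmb9* lie in the major histocompatibility complex, whereas *B2m*, *Psmb10* and *Nlrc5* lie elsewhere.

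The files use GRCm38, and on this build 7 of the 10 genes lay on chromosome 17. *Psmb9*, *Tap1*, *Psmb8* and *Tap2* followed each other in that order within chr17:34181987-34216321, a stretch of 34335 bases with no other protein-coding gene in the annotation. *Psmb9* (ENSMUSG00000096727, chr17:34181987-34187764, minus strand) and *Tap1* (ENSMUSG00000037321, chr17:34187553-34197225, plus strand) start from facing ends, and their annotated spans overlap. *Psmb8* (ENSMUSG00000024338) occupied chr17:34197721-34201454 and *Tap2* (ENSMUSG00000024339) chr17:34203527-34216321, both on the plus strand. *Tapbp* (ENSMUSG00000024308, chr17:33915899-33929292, plus strand), *H2-K1* (ENSMUSG00000061232, chr17:33996017-34000347, minus strand) and *H2-D1* (ENSMUSG00000073411, chr17:35262730-35267499, plus strand) lay on either side of that stretch. *Psmb10* (ENSMUSG00000031897, chr8:105935735-105938444, minus strand) and *Nlrc5* (ENSMUSG00000074151, chr8:94434356-94527272, plus strand) were on chromosome 8, and *B2m* (ENSMUSG00000060802, chr2:122147686-122153083, plus strand) was on chromosome 2.

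The promoters of both heavy chains and of the light chain are shown because these 3 genes make the displayed molecule, whose parts are described one by one below. The interval between the RefSeq starts of *Tap1* and *Psmb9* is shown because 1 stretch of sequence lies upstream of both genes. The first 3 are the 250 bases before the gene's start at chr17:34000348-34000597 (minus strand), chr17:35262844-35263093 (plus strand) and chr2:122147437-122147686 (plus strand), and the last is chr17:34187331-34187555 (plus strand), all from RefSeq on GRCm38.p6. Capitals mark matches, on either strand, to 4 motifs, which were chosen after the sequences were seen. These are an interferon regulatory factor core AANNGAAA, an NF-kappaB site GGGATTCCC, a half-site of the X2 box TGACG and the Y box CCAAT.
H2-K1: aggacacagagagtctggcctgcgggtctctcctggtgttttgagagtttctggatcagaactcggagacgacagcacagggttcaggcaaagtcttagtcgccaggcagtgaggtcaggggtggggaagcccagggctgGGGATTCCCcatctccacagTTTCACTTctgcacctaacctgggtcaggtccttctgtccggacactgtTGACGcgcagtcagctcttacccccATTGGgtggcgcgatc
H2-D1: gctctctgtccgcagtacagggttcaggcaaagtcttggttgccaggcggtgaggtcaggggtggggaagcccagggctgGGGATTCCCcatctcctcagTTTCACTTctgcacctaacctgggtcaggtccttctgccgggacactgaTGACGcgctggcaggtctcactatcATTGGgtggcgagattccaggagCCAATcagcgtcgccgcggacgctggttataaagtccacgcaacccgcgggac
B2m: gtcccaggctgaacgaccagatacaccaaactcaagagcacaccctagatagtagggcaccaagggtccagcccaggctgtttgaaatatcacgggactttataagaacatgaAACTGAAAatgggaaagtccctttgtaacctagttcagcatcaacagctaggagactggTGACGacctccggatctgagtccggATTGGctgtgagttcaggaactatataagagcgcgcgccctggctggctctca
Tap1 and Psmb9: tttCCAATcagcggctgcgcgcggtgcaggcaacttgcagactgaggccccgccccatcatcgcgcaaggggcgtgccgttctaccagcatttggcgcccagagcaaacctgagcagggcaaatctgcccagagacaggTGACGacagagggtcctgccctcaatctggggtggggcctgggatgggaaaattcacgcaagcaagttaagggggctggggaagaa

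Windows were at hand for 8 of the 10 genes, without *Tap2* and *Nlrc5*. The core AANNGAAA was found in 3 of 8 windows, those printed for *H2-K1*, *H2-D1* and *B2m*, and in 21.6% of 27025 mouse promoters of the same length. GGGATTCCC was in the windows of *H2-K1* and *H2-D1* and in 0.311% of all promoters. TGACG was in 5 of 8 windows against 17.9% of all promoters, and CCAAT in 6 of 8 against 34.5%. The windows of *Tap1* and *Psmb9* cover the same interval, so its 1 TGACG and its 1 CCAAT each count for both genes. The box CACGTG, which lies at the heart of the motif bound by TFEB and TFE3, was in 1 of 8 windows, that of *Psmb10*, and in 6.05% of all promoters. In *H2-K1* and *H2-D1* the 4 motifs followed each other in the same order, with the NF-kappaB site 110 and 170 bases before the annotated start and the core 90 and 150 bases before it. The windows of both heavy chains aligned over 190 bases, of which 166 were identical (87.4%). The interval between *Tap1* and *Psmb9* held 1 TGACG and 1 CCAAT. These matches describe letters only, and no binding was measured.

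Heavy chains of the class I family share sequence, which bears on how reads were divided among them. Of all runs of 52 bases, the read length, in the transcript that took most reads of its gene, 13.1% in *H2-D1* and 7.90% in *H2-K1* also occurred in a transcript of another gene, *H2-Q1* among the most frequent for both. For *Tapbp* the share was 2.17%, and for *Tap1* and *Tap2* it was under 1%, at 0.793% and 0.916%. It was 0 for *B2m*, *Psmb8*, *Psmb9*, *Psmb10* and *Nlrc5*. Levels of *H2-K1* and *H2-D1* are less certain for this reason, and the size of the error was not measured.

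In the 3 DMSO libraries of WT at passages 7 to 9 the 10 genes spanned more than 2 orders of magnitude per length. In TPM, which divides counts by transcript length and scales each library to the same total, *B2m* stood at 800 to 1020, *H2-K1* at 470 to 619, *H2-D1* at 187 to 242 and *Tapbp* at 179 to 217. *Psmb10* followed at 59.6 to 68.4 TPM. *Psmb8* at 12.1 to 22.1 TPM, *Tap1* at 12.2 to 16.7 TPM and *Tap2* at 11.9 to 15.2 TPM overlapped, as did *H2-D1* and *Tapbp*. *Nlrc5* was at 4.94 to 6.92 TPM and *Psmb9* was lowest at 2.53 to 4.63 TPM. These per-length levels depend on which transcripts are kept: with protein-coding transcripts alone, the median of *Psmb10* in WT DMSO libraries was 18.3 instead of 64.9 TPM, and that of *Tap2* in DKO DMSO libraries was 8.27 instead of 26.1 TPM. The transcript that took most *Tap2* reads, 57.8% to 71.4%, is annotated as a retained intron. The fewest reads behind any member value were the 48 estimated counts of *Psmb9* in 1 WT library.

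**Figure D1:**
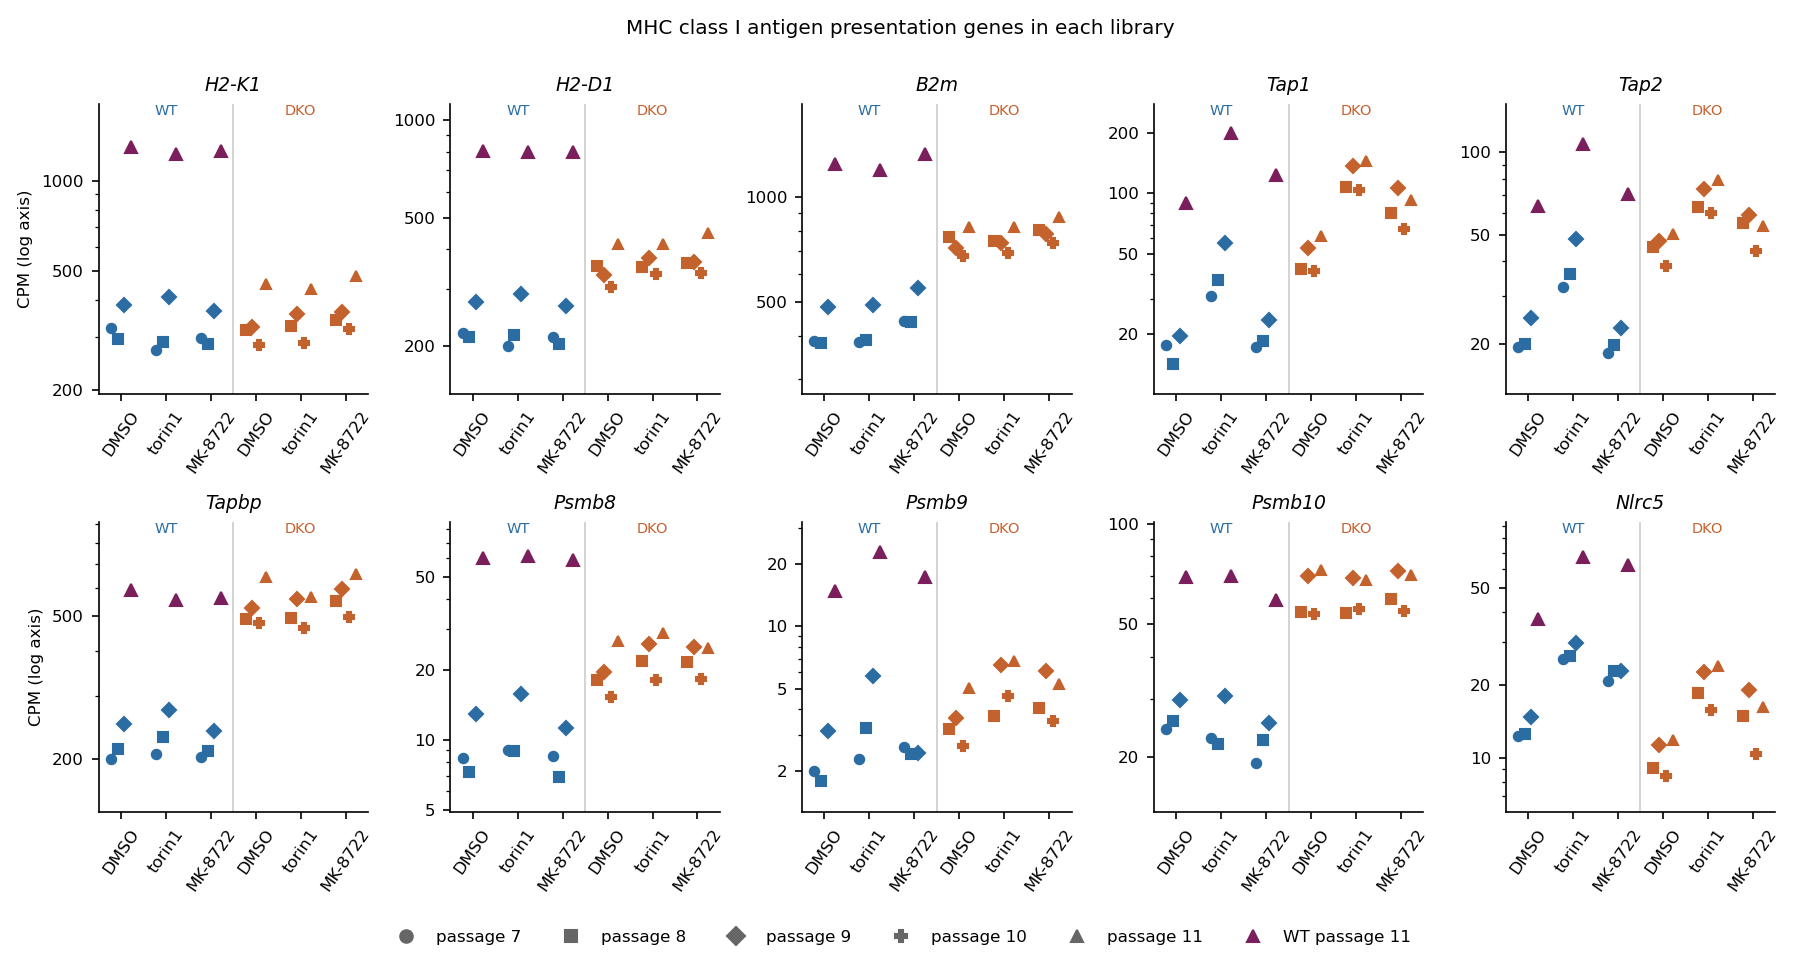
Level of each of the 10 genes in all 24 libraries, in CPM on a log axis, by genotype and treatment. Marker shapes give the passage and purple marks the WT libraries of passage 11. In all 3 WT groups the library of passage 11 is the highest for all 10 genes, for instance *Psmb8* at 59.3 to 61.7 CPM against 6.88 to 15.7 CPM in the other WT libraries.

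All 10 genes were higher in the WT libraries of passage 11 than in WT libraries of passages 7 to 9. Under DMSO, *H2-K1* stood at 321, 295 and 385 CPM at passages 7, 8 and 9 and at 1290 CPM at passage 11. *H2-D1* went from 220, 213 and 274 CPM to 803 CPM, and *B2m* from 387, 381 and 485 CPM to 1250 CPM. The passage 11 library was thus above each earlier library for all 3 parts of the displayed molecule. *Tap1* stood at 17.6, 14.2 and 19.5 CPM and then at 89.5 CPM, and *Tap2* at 19.6, 20.1 and 24.8 CPM and then at 63.8 CPM. *Tapbp* stood at 200, 213 and 251 CPM and then at 592 CPM. The transporter genes were as clearly separated as the heavy chains. *Psmb8* went from 8.36, 7.28 and 12.9 CPM to 60.3 CPM, and *Psmb9* from 2.0, 1.79 and 3.13 CPM to 14.9 CPM. *Psmb10* stood at 24.3, 25.7 and 29.8 CPM and then at 69.2 CPM. *Nlrc5* stood at 12.3, 12.6 and 14.8 CPM and at 37.4 CPM at passage 11. At each of the 3 treatments, 10 of 10 genes had their highest WT value at passage 11, where 30.2%, 26.7% and 28.8% of all genes tested did under DMSO, torin1 and MK-8722. The ratio of the passage 11 library to the mean of the earlier ones was 2.6 to 6.47 under DMSO, 2.34 to 6.10 under torin1 and 2.58 to 7.00 under MK-8722 in WT.

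In a fit with 1 term for passage 11 in each genotype, the quasi-likelihood F-test of edgeR called 10 of 10 genes higher in WT, against 5.12% of the 15401 genes tested. A call required a fold change of 1.2 or more and a p-value below 0.05 after Benjamini-Hochberg adjustment over all genes. The comparison was chosen with these WT libraries already known to stand apart. They are 1 passage and may come from 1 culture, so the p-values do not measure a spread between cultures of that passage. The immunoproteasome subunits *Psmb9* and *Psmb8* and the transporter gene *Tap1* rose most, by a log2 fold change of 2.70 ± 0.18 (SE, adjusted p = 5.36e-11), 2.61 ± 0.14 (adjusted p = 5.26e-12) and 2.42 ± 0.14 (adjusted p = 7.03e-12). *H2-K1* rose by 1.96 ± 0.09 and *H2-D1* by 1.77 ± 0.08 on the log2 scale (adjusted p = 4.63e-13 for both). *Tap2* and *B2m* rose by 1.60 ± 0.10 and 1.53 ± 0.07. *Nlrc5* at 1.43 ± 0.10, *Psmb10* at 1.42 ± 0.10 and *Tapbp* at 1.34 ± 0.07 rose least, with adjusted p-values of 3.42e-10, 1.73e-10 and 4.39e-12.

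The passage 11 difference was smaller in the DKO libraries. Under DMSO, the DKO libraries of passages 8, 9, 10 and 11 had 317, 325, 282 and 450 CPM of *H2-K1* and 42.2, 53.6, 41.3 and 61.6 CPM of *Tap1*. *H2-K1* was the only gene of the 10 called, at a log2 difference of 0.49 ± 0.10 (adjusted p = 0.00804, edgeR), where 0.935% of all genes were called higher, and the call was lost without DKO_DMSO replicate 1 or DKO_MK-8722 replicate 2. The other 9 differences were 0.17 to 0.45, and 7 of the 10 had an unadjusted p under 0.05. The share of all genes at that unadjusted threshold was not counted. The ratio of the passage 11 library to the earlier mean was 1.14 to 1.61 under DMSO, 1.12 to 1.38 under torin1 and 1.03 to 1.41 under MK-8722. DKO libraries of passage 11 were above the earlier ones for 10, 9 and 4 of 10 genes under these treatments, against 27.5%, 25.5% and 25.4% of all genes. The passage 11 difference was smaller in DKO than in WT for 10 of 10 genes, against 3.12% of all genes called lower by the same test. The difference between the genotypes ran from -1.08 ± 0.11 for *Tapbp* (adjusted p = 2.65e-07) to -2.24 ± 0.28 for *Psmb9* (adjusted p = 5.86e-06) on the log2 scale. Passage 11 in WT is 1 passage of 1 line with 3 libraries, so the passage and any other feature of those libraries cannot be told apart.

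**Figure D2:**
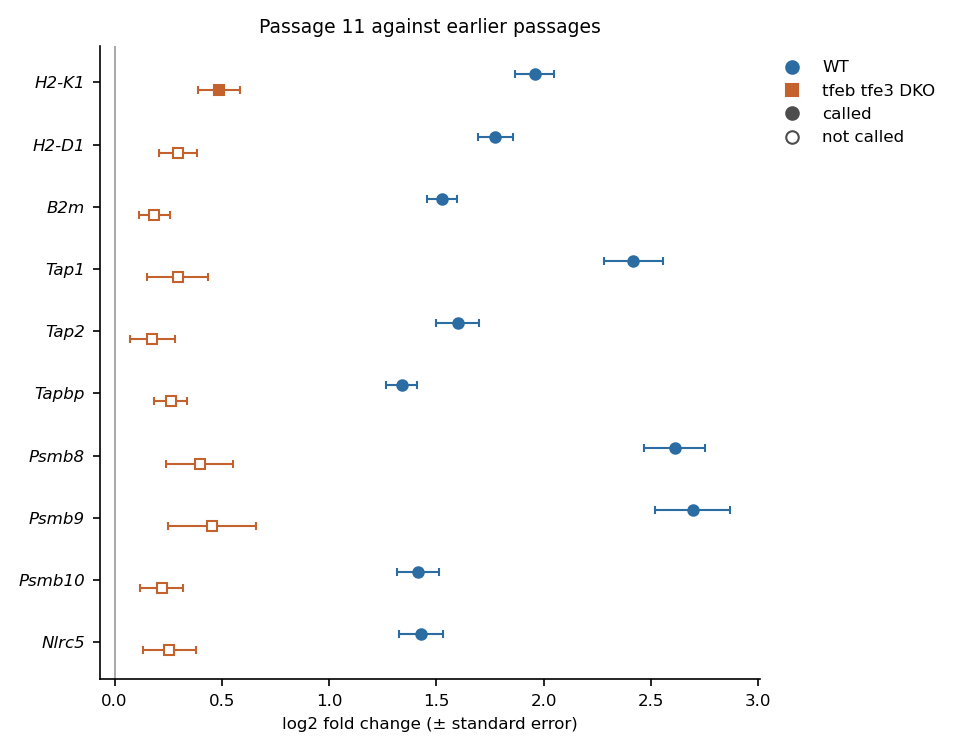
Log2 difference between passage 11 and earlier passages for each gene in WT and DKO, with the standard error, from the fit on all 24 libraries. Filled markers are called and open ones are not: the WT values lie between 1.34 and 2.70 and the DKO values between 0.17 and 0.49.

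Genes known to answer to interferon moved with these libraries, and their part in the result was not tested. Of 20 interferon-stimulated genes, 20 were higher in WT at passage 11, against 5.12% of all genes. Their median log2 difference was 3.79 against -0.01 for all genes, from *Cxcl10* at 2.24 ± 0.20 to *Ifi44* at 4.93 ± 0.28. *Isg15*, an interferon-induced ubiquitin-like protein, stood at 12.8 to 28.7 CPM in the earlier WT DMSO libraries and at 238 CPM at passage 11. The 4 interferon genes *Ifnb1*, *Ifng*, *Ifna2* and *Ifna4* were below 1 CPM in all libraries, with a summed level of at most 0.0635 CPM in the earlier WT libraries, 0.0716 to 0.196 CPM at WT passage 11 and at most 0.206 CPM in DKO.

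The background for the lists that follow is 5.12% of all genes called higher and 393 of the 15401 genes called lower. Among 21 regulators and receptors of the pathway, 3 were higher in WT at passage 11 and 0 lower. These were *Stat2* (log2 difference 2.38 ± 0.14), *Irf9* (1.93 ± 0.18) and *Irf1* (0.65 ± 0.07), which carry or follow the interferon signal. The same 3 genes had a smaller passage 11 difference in DKO. *Rfx5*, which binds the X1 box of class I promoters, was at 0.13 ± 0.07 and was not called. Of 13 other class I heavy chain genes, 10 were higher in WT at passage 11, from *Hfe* at 0.43 ± 0.12 to *H2-T24* at 3.27 ± 0.17. Of 12 genes of peptide supply and loading, 4 were higher: *Psme2* at 0.90 ± 0.05 and *Psme1*, which together form the proteasome activator PA28, *Erap1*, which trims peptides in the endoplasmic reticulum, and *Tapbpl* at 0.41 ± 0.07. *Psmb5*, *Psmb6* and *Psmb7*, the constitutive subunits, were within 0.08 of no difference and were not called. Of the 7 class II genes listed, 4 were tested and 1, *H2-DMb1*, was higher, at 0.33 ± 0.09, while the class II transactivator *Ciita* stayed at or below 0.11 CPM.

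The comparison of the genotypes turned on the WT libraries of passage 11. With all 24 libraries, edgeR called *Nlrc5* lower in DKO than in WT under each treatment and no other gene under DMSO or torin1. The log2 difference of *Nlrc5* was -0.92 ± 0.40 under DMSO (adjusted p = 0.0495), -0.88 ± 0.38 under torin1 (adjusted p = 0.0441) and -1.09 ± 0.39 under MK-8722 (adjusted p = 0.0178). The calls of *Nlrc5* were lost with 16 of the 24 libraries left out singly under DMSO, 8 under torin1 and 2 under MK-8722. Without the WT library of passage 11 of the same treatment, the difference of *Nlrc5* was -0.37 (adjusted p = 0.414), -0.42 (adjusted p = 0.318) and -0.56 (adjusted p = 0.176). Under MK-8722, *Psmb10* at 1.02 ± 0.37 (adjusted p = 0.0189) and *Tapbp* at 0.92 ± 0.34 (adjusted p = 0.0232) were also called higher in DKO, calls lost with 3 and 4 of the libraries left out singly. Of all genes, 23.5%, 24% and 23.3% were called higher and 24.6%, 27.8% and 25.4% lower under DMSO, torin1 and MK-8722. The standard errors were 0.34 to 0.75 under DMSO, since each WT group held 1 library of passage 11.

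Without the 3 WT libraries of passage 11, 7 of 10 genes were higher in DKO under DMSO, 7 under torin1 and 8 under MK-8722, and *Nlrc5* was lower under all 3. In that fit of 21 libraries, 22%, 25.1% and 22.5% of all genes were called higher and 26.3%, 27% and 26.5% lower. The genes of peptide transport and loading were among them. *Tap1* under DMSO stood at 42.2, 53.6, 41.3 and 61.6 CPM in DKO, each above the 14.2 to 19.5 CPM of the 3 earlier WT libraries, and was higher by 1.5 ± 0.21 (adjusted p = 2.51e-06). *Tapbp* stood at 492, 525, 479 and 641 CPM against 200, 213 and 251 CPM, higher by 1.24 ± 0.12 (adjusted p = 7.48e-09). *Tap2* at 45.1, 47.5, 38.6 and 50.2 CPM was above 19.6, 20.1 and 24.8 CPM, a difference of 1.04 ± 0.14 (adjusted p = 1.36e-06). For all 3 genes the libraries of the genotypes did not overlap.

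Of the immunoproteasome subunits, *Psmb8* and *Psmb10* were called under each treatment and *Psmb9* under 1. *Psmb10* under DMSO stood at 54.4, 70.0, 53.6 and 72.5 CPM in DKO and at 24.3, 25.7 and 29.8 CPM in earlier WT, a log2 difference of 1.21 ± 0.14 (adjusted p = 2.28e-07). *Psmb8* was at 18.1, 19.5, 15.2 and 26.4 CPM against 8.36, 7.28 and 12.9 CPM, and was higher by 1.02 ± 0.24 (adjusted p = 0.000777). *Psmb9* was at 3.20, 3.61, 2.65 and 5.07 CPM against 2.0, 1.79 and 3.13 CPM, which overlapped, and the difference of 0.63 ± 0.31 was not called (adjusted p = 0.085). It was called only under MK-8722, at 0.90 ± 0.30 (adjusted p = 0.0134), and whether this differed from the other treatments is given below with the responses.

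Of the displayed molecule, *B2m* and *H2-D1* were called higher and *H2-K1* was not. *B2m* stood at 768, 716, 680 and 823 CPM in DKO under DMSO, against 387, 381 and 485 CPM in earlier WT, and was higher by 0.81 ± 0.10 (adjusted p = 6.71e-07). *H2-D1* stood at 353, 333, 305 and 413 CPM against 220, 213 and 274 CPM and was higher by 0.54 ± 0.13 (adjusted p = 0.00136). *H2-K1* stood at 317, 325, 282 and 450 CPM against 321, 295 and 385 CPM, and the libraries overlapped. Its difference was 0.01 ± 0.17 under DMSO (adjusted p = 0.964), 0.13 ± 0.17 under torin1 (adjusted p = 0.531) and 0.23 ± 0.17 under MK-8722 (adjusted p = 0.263). The difference between the 2 heavy chains was itself not tested, and both share sequence with other class I genes.

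*Nlrc5* was the 1 gene that was lower in DKO. Under DMSO it stood at 9.13, 11.3, 8.44 and 11.9 CPM in DKO and at 12.3, 12.6 and 14.8 CPM in WT of passages 7 to 9, so that all DKO libraries were below all WT libraries. The difference without passage 11 was -0.40 ± 0.17 (adjusted p = 0.0427) under DMSO, -0.42 ± 0.15 (adjusted p = 0.0183) under torin1 and -0.57 ± 0.16 (adjusted p = 0.00333) under MK-8722. Counted by libraries that did not overlap, 7, 7 and 8 genes were above and 1 gene, *Nlrc5*, below the earlier WT libraries under DMSO, torin1 and MK-8722. The share of all genes without overlap was 31.3%, 31.1% and 29.5% above and 31.2%, 34.5% and 31% below. At passages 8 and 9, where both genotypes were sampled, the fit of 12 libraries called 7, 7 and 8 genes higher, against 21%, 24% and 22% of all genes.

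**Figure D3:**
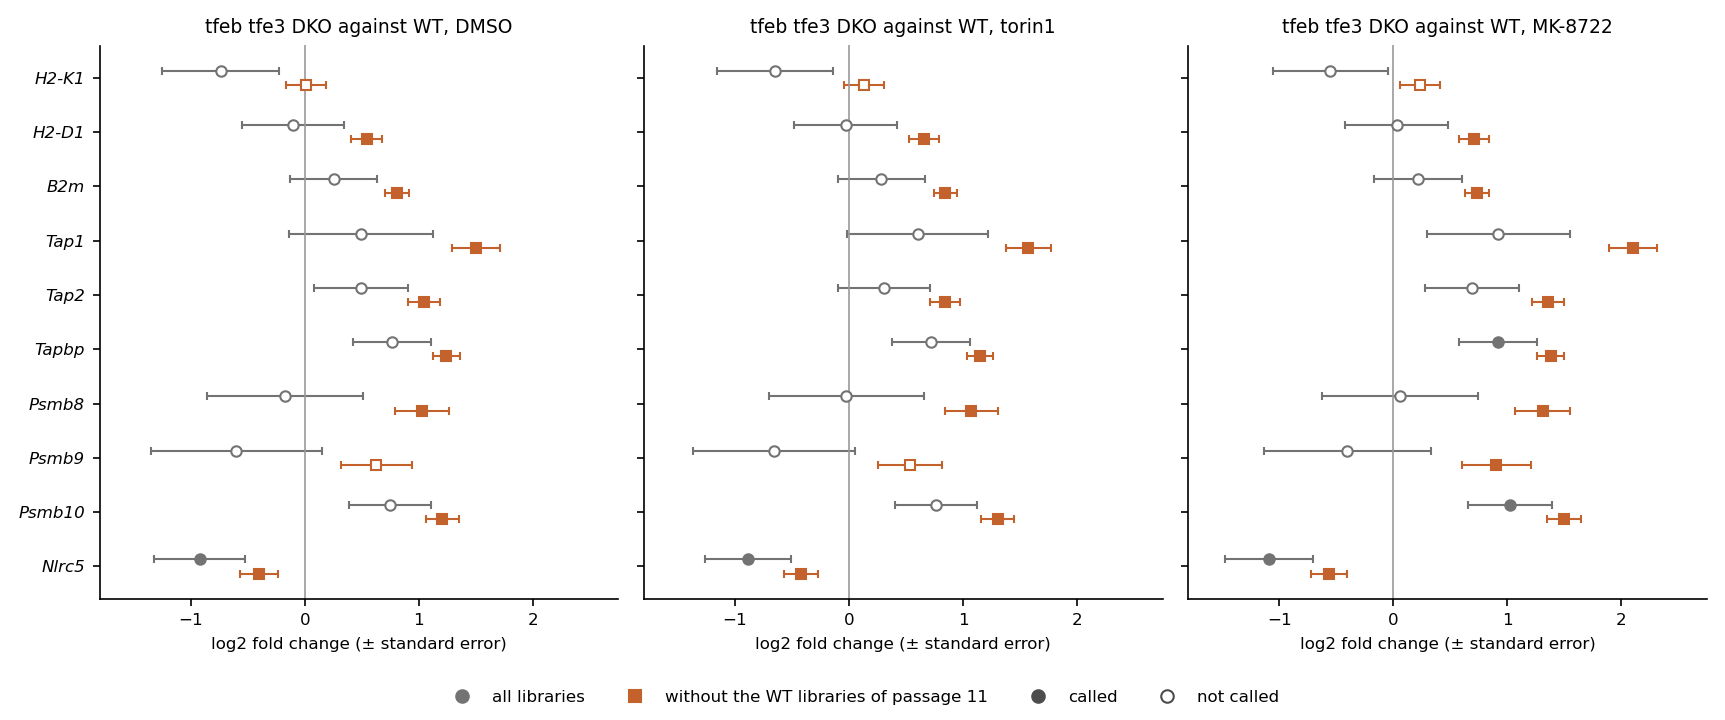
Log2 difference between DKO and WT for each gene under each treatment, with the standard error, from all 24 libraries and without the 3 WT libraries of passage 11. Filled markers are called: without those libraries *Tap1* is at 1.5 under DMSO and *Nlrc5* at -0.40, and with them only *Nlrc5* is called under DMSO.

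Set against WT of passage 11, most of the 10 genes were not higher in DKO. The WT library of passage 11 was above all 4 DKO libraries for 8 genes under DMSO, 9 under torin1 and 8 under MK-8722. *Tapbp* was the exception under all 3 treatments, with 592 CPM at WT passage 11 and up to 641 CPM in DKO under DMSO, and *Psmb10* under DMSO and MK-8722. The share of all genes for which WT passage 11 was above all DKO libraries was not counted. The regulator *Irf1* was at 49.3 to 63.5 CPM in DKO and at 48.1 to 74.6 CPM in WT under DMSO.

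Without WT passage 11, genes of the interferon response were also higher in DKO, and their part in the result was not tested. In that fit 20 of 20 interferon-stimulated genes were higher under each treatment. Of all genes, 22%, 25.1% and 22.5% were higher under DMSO, torin1 and MK-8722. The median log2 differences of the 20 genes were 4.15, 3.45 and 4.36 against -0.04, -0.02 and -0.03 for all genes. Under DMSO they ran from *Ddx58* at 2.30 ± 0.21 to *Rsad2* at 5.39 ± 0.40. With all 24 libraries, 3, 2 and 10 of the 20 were called higher, against 23.5%, 24% and 23.3% of all genes. Under DMSO the WT library of passage 11 was above all DKO libraries for *Ifi44*, at 181 against 115 to 173 CPM. It lay within their range for *Isg15*, at 238 against 206 to 282 CPM, and below them for *Rsad2*, at 12.3 against 29.2 to 46.8 CPM. *Stat2*, which carries the interferon signal together with *Irf9*, was higher by 1.82 ± 0.63 with all libraries under DMSO and by 2.89 ± 0.21 without passage 11. Of the 21 regulators and receptors, 7 were higher and 5 lower in DKO under DMSO, both with all libraries and without passage 11. Of all genes, 23.5% were higher and 24.6% lower with all libraries and 22% and 26.3% without passage 11. *Rfxank*, a subunit of the RFX complex, was lowest without passage 11, at -0.55 ± 0.09.

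Other class I heavy chains did not move as a block. Without WT passage 11, 7 of 13 were higher and 5 lower in DKO under DMSO, where 22% of all genes were higher and 26.3% lower. *H2-T24* was higher by 3.01 ± 0.24. *Cd1d1*, which presents lipids, was lower by 9.43 on the log2 scale with a standard error of 0.51, and *H2-Q6*, *H2-M3*, *H2-Q7* and *H2-T10* were also lower. Of the 12 genes of peptide supply and loading, 6 were higher, *Erap1* most with 0.98 ± 0.09, and 1 was lower, *Lnpep*, an aminopeptidase of endosomes, at -0.38 ± 0.06. All 4 class II genes tested were lower in DKO, with *H2-Ab1* at -6.07 ± 0.53 and *H2-DMa* at -0.97 ± 0.16 over all libraries under DMSO.

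Torin1 raised *Nlrc5* in both genotypes. *Nlrc5* stood at 12.3, 12.6, 14.8 and 37.4 CPM in WT at passages 7, 8, 9 and 11 under DMSO and at 25.6, 26.4, 29.6 and 67.0 CPM under torin1. In DKO it went from 9.13, 11.3, 8.44 and 11.9 CPM at passages 8, 9, 10 and 11 to 18.6, 22.5, 15.8 and 23.8 CPM. Torin1 libraries held 1.79 to 2.10 times the DMSO level of the same passage in WT and 1.87 to 2.04 times in DKO. The log2 fold change was 0.94 ± 0.38 in WT (adjusted p = 0.0348, edgeR) and 0.98 ± 0.40 in DKO (adjusted p = 0.0416) with all libraries. The call was lost with 4 of 24 libraries left out singly in WT and with 7 in DKO. The fold change was 1.01 ± 0.17 (adjusted p = 2.34e-05) and 0.99 ± 0.15 (adjusted p = 9.21e-06) without WT passage 11. *Nlrc5* was 1 of 10 genes called higher in each genotype with all libraries, where 26.6% of all genes in WT and 23% in DKO were.

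*Tap1* and *Tap2* were called without WT passage 11, and also with all libraries when each was compared within its passage, but not in the fit of all libraries by group alone. *Tap1* in WT stood at 17.6, 14.2, 19.5 and 89.5 CPM under DMSO and at 30.9, 37.3, 56.6 and 199 CPM under torin1 at passages 7, 8, 9 and 11. In DKO it stood at 42.2, 53.6, 41.3 and 61.6 CPM and at 107, 136, 104 and 144 CPM at passages 8 to 11. All DKO torin1 libraries were above all DKO DMSO libraries, and torin1 was above DMSO at each passage in WT. The fold change of *Tap1* was 1.25 ± 0.22 on the log2 scale in WT (adjusted p = 5.67e-05) and 1.32 ± 0.18 in DKO (adjusted p = 1.46e-06) without WT passage 11, and 1.19 ± 0.63 (adjusted p = 0.109) and 1.30 ± 0.63 (adjusted p = 0.0826) with all libraries. *Tap2* rose from 19.6, 20.1 and 24.8 CPM to 32.2, 35.9 and 48.1 CPM in WT of passages 7, 8 and 9, and from 45.1, 47.5, 38.6 and 50.2 CPM to 63.3, 73.1, 60.0 and 79.2 CPM in DKO. Its fold change was 0.82 ± 0.15 in WT (adjusted p = 7.07e-05) and 0.62 ± 0.12 in DKO (adjusted p = 0.000161) in the same fit. Thus 3 of 10 genes were called higher in each genotype without WT passage 11, against 24.3% of all genes in WT and 24.8% in DKO. With all 24 libraries and 1 term for each passage of each genotype, so that a drug is set against DMSO of the same passage, *Tap1*, *Nlrc5*, *Tap2* and *Psmb9* were called in both genotypes, against 28.5% of all genes in WT and 24.9% in DKO.

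Of the remaining genes, *Psmb9* passed under torin1 in the fit within passages alone. *Psmb9*, which starts opposite to *Tap1*, stood at 2.0, 1.79 and 3.13 CPM under DMSO and at 2.29, 3.22 and 5.75 CPM under torin1 in WT of passages 7 to 9. Its fold change was 0.67 ± 0.32 in WT (adjusted p = 0.0838) and 0.58 ± 0.26 in DKO (adjusted p = 0.0655) without WT passage 11. Within passages it was 0.65 ± 0.14 (adjusted p = 0.000358) and 0.57 ± 0.15 (adjusted p = 0.00222) with all libraries. *Psmb8* was at 0.21 ± 0.26 and 0.26 ± 0.20 without WT passage 11. *H2-K1*, *H2-D1*, *B2m*, *Tapbp* and *Psmb10* were within 0.11 of no change in both genotypes on the log2 scale, with standard errors of 0.09 to 0.19. None of the 10 genes was called lower with torin1, where 20.5% of all genes in WT and 20.2% in DKO were.

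MK-8722 left 10 of 10 genes uncalled when edgeR fitted all 24 libraries by group alone. In that fit 0 of them had an unadjusted p under 0.05 in either genotype. Of all genes, 10.3% were called higher and 5.87% lower in WT, and 5.47% higher and 3.21% lower in DKO. Without WT passage 11, *Nlrc5* was called in both genotypes. It stood at 20.8, 22.7 and 22.9 CPM with MK-8722 in WT at passages 7, 8 and 9, above the 12.3 to 14.8 CPM of DMSO, and at 14.9, 19.1, 10.4 and 16.2 CPM in DKO, which overlapped with 8.44 to 11.9 CPM. The fold change was 0.74 ± 0.17 in WT (adjusted p = 0.00254) and 0.57 ± 0.16 in DKO (adjusted p = 0.011). *Tap1* in DKO stood at 79.9, 106, 66.3 and 92.8 CPM with MK-8722, above the 41.3 to 61.6 CPM of DMSO, and rose by 0.80 ± 0.18 (adjusted p = 0.00248). In WT of passages 7, 8 and 9 *Tap1* stood at 17.3, 18.6 and 23.4 CPM, and its fold change was 0.20 ± 0.23 (adjusted p = 0.586). In that fit 9.32% of all genes in WT and 6.53% in DKO were called higher. Within passages, *Nlrc5* and *Tap1* were called in both genotypes with all libraries, *Tap1* at 0.30 ± 0.09 in WT (adjusted p = 0.0127), against 11.6% of all genes in WT and 7.49% in DKO. There, 4 of 10 genes in WT and 9 in DKO had an unadjusted p under 0.05. The median log2 fold change of the 10 genes was -0.02 in WT and 0.16 in DKO. The share of all genes at that unadjusted threshold was not counted.

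The responses of both genotypes to each drug were then compared with each other. In the fits by group, with all libraries and without WT passage 11, edgeR called 0 of 10 genes for a different response in DKO, and 0 had an unadjusted p under 0.05 in either fit. The share of all genes called was 4.68% higher and 6.33% lower for torin1 and 1.42% higher and 4.08% lower for MK-8722 with all libraries. Without WT passage 11 it was 6.79% and 4.84% for torin1 and 1.53% and 3.66% for MK-8722. The comparison within passages changed this for MK-8722: the response was higher in DKO for *Tap1* by 0.50 ± 0.12 (adjusted p = 0.00742) and for *Psmb10* by 0.28 ± 0.06 (adjusted p = 0.0027), and 7 of 10 genes had an unadjusted p under 0.05. Of all genes 3.16% were called higher and 5.88% lower in that fit. The share of all genes with an unadjusted p under 0.05 was not counted in these fits. For torin1 it called 0 of 10 genes, with 1 at an unadjusted p under 0.05, against 6.74% higher and 8.63% lower of all genes. For *Nlrc5* without WT passage 11, the response to torin1 differed by -0.02 ± 0.23 and that to MK-8722 by -0.17 ± 0.23 on the log2 scale. For *Tap1* it differed by 0.07 ± 0.28 with torin1 and by 0.60 ± 0.29 with MK-8722 (adjusted p = 0.302). For *Psmb9* with MK-8722 it differed by 0.27 ± 0.44.

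**Figure D4:**
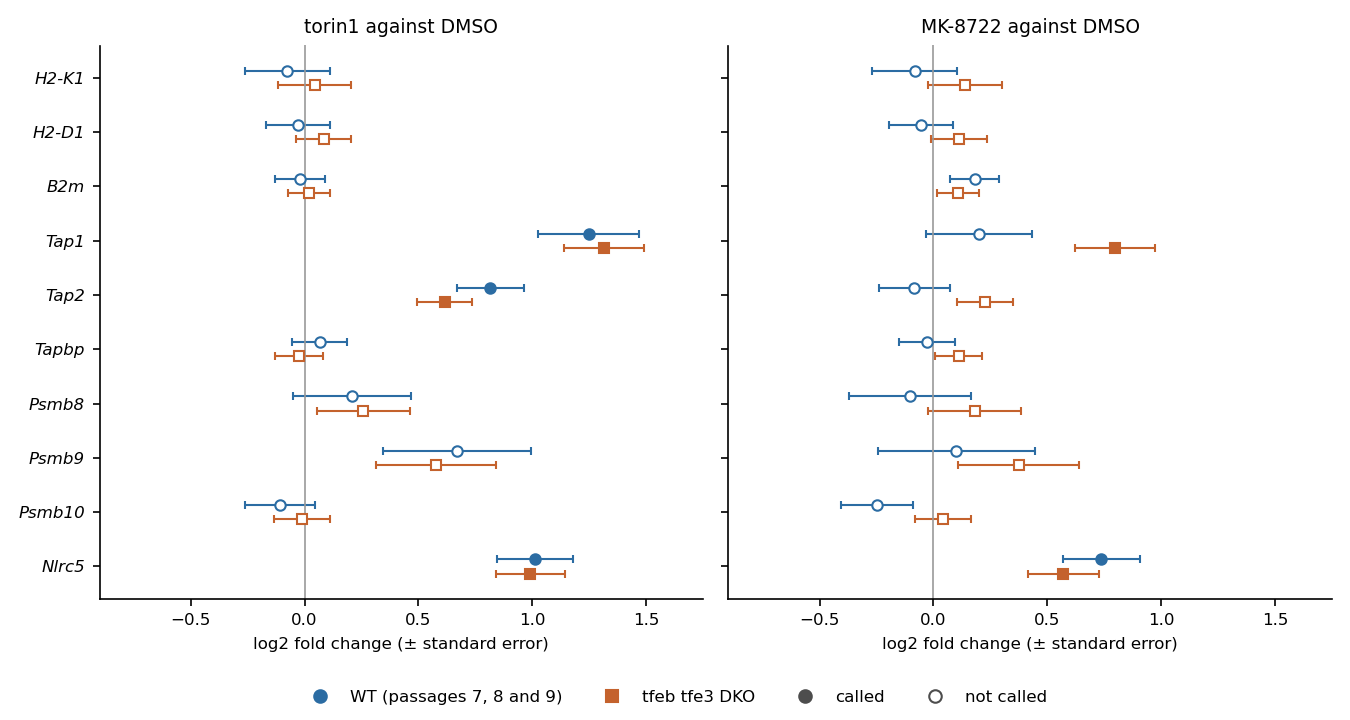
Log2 fold change of each gene with torin1 and with MK-8722 compared to DMSO in WT and in DKO, with the standard error, from the fit without the 3 WT libraries of passage 11. Filled markers are called: *Nlrc5* in all 4 comparisons, *Tap1* with torin1 in both genotypes and with MK-8722 in DKO, and *Tap2* with torin1.

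The constitutive proteasome subunits fell with torin1. Of their immunoproteasome counterparts *Psmb8* and *Psmb10* were not called, and *Psmb9* was called higher only within passages. *Psmb5*, *Psmb6* and *Psmb7* fell by 0.65, 0.59 and 0.57 on the log2 scale in WT and by 0.60, 0.58 and 0.44 in DKO, and all were called. The torin1 libraries held 0.613 to 0.729 times the DMSO level of the same passage for these 3 genes in WT and 0.651 to 0.798 times in DKO. The share of an immunoproteasome subunit in the summed TPM of its pair depends on both genes. For *Psmb10* the torin1 libraries held 0.859 to 1.03 times the DMSO level in WT and 0.937 to 1.03 times in DKO. For *Psmb8* they held 1.02 to 1.23 times that level in WT and 1.09 to 1.32 times in DKO. For *Psmb9* it was 1.14 to 1.83 times in WT and 1.15 to 1.81 times in DKO. In WT of passages 7 to 9 the share of *Psmb8* was 3.96% to 7.10% under DMSO and 6.74% to 12.8% under torin1, and that of *Psmb10* was 18% to 20.4% and 22.2% to 30.0%. The share of *Psmb9* was 0.437% to 0.803% under DMSO and 0.904% to 1.95% under torin1.

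In the WT DMSO library of passage 11 the shares were 26.6% for *Psmb8*, 3.94% for *Psmb9* and 34.5% for *Psmb10*, and under torin1 they were 36.3%, 7.97% and 44.6%. DKO libraries under DMSO lay between 7.60% and 13.1% for *Psmb8*, 0.675% and 1.42% for *Psmb9* and 29.2% and 36.6% for *Psmb10*. For *Psmb10* DKO thus reached the share of WT passage 11, and for *Psmb8* and *Psmb9* it did not. With protein-coding transcripts alone, the shares of *Psmb10* were lower, at 5.46% to 7.11% in earlier WT under DMSO, 16.7% in WT of passage 11 and 13.2% to 19.1% in DKO. Those of *Psmb8* were 2.85% to 5.41%, 19.9% and 5.43% to 9.47% in the same order. The order of the 3 sets of libraries was kept for both genes, and these shares are descriptions without a test.

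**Figure D5:**
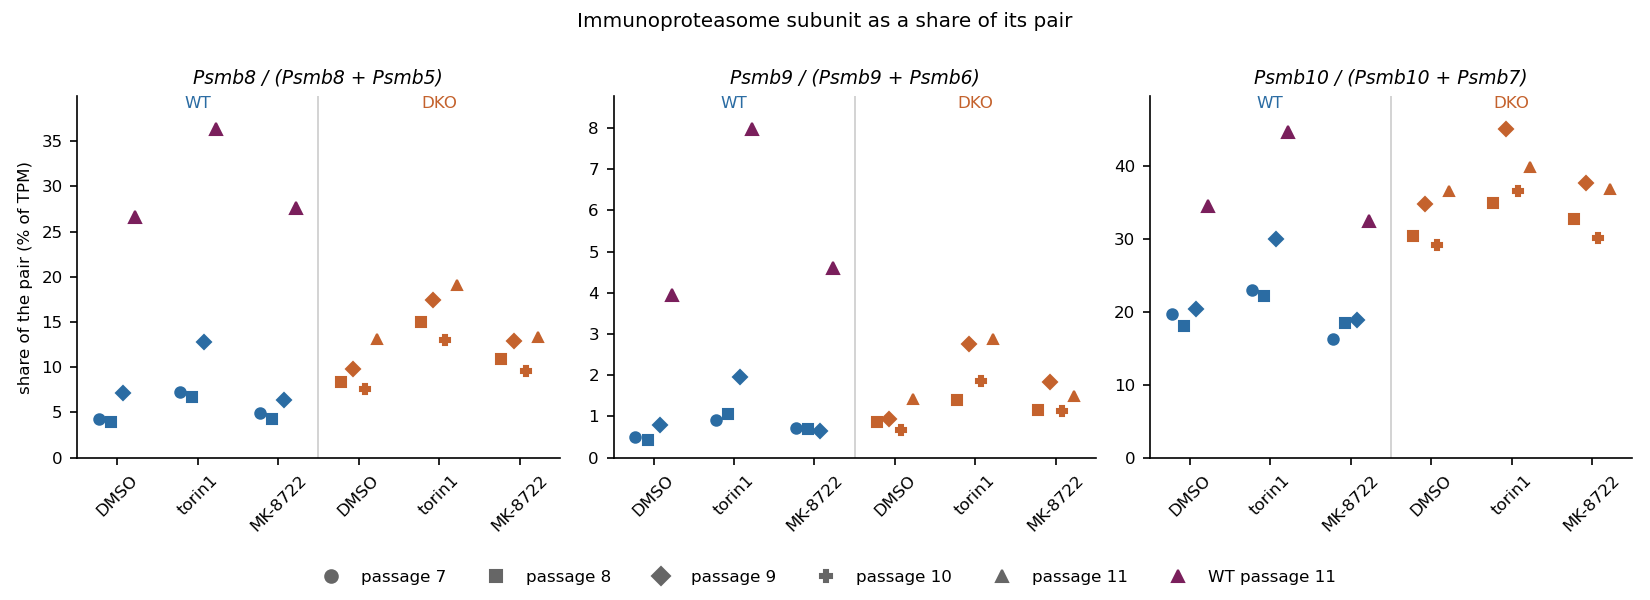
Share of *Psmb8*, *Psmb9* and *Psmb10* in the summed TPM of each subunit and its constitutive counterpart, in percent, for all 24 libraries by genotype and treatment. Marker shapes give the passage and purple marks WT of passage 11, where *Psmb8* reaches 26.6% to 36.3% against 3.96% to 12.8% in the other WT libraries.

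Under torin1, 26.6% of all genes rose and 20.5% fell in WT, and 23% rose and 20.2% fell in DKO with all libraries, which is the background for the listed partner genes. With all libraries, 0 of the 12 genes of peptide supply and loading rose and 4 fell in WT, *Psme3* by 1.03 and *Pdia3* by 0.30 on the log2 scale among them, and in DKO 1 rose and 3 fell, *Calr*, the chaperone calreticulin, by 0.80. Of the 21 regulators and receptors, 2 rose and 4 fell in WT, from *Tyk2*, a kinase of the interferon receptor, at 0.63 ± 0.09 to *Socs1*, an inhibitor of that signal, at -0.63 ± 0.14. In DKO 3 rose and 3 fell. *Rfx5* rose by 0.27 ± 0.09 in WT and 0.38 ± 0.09 in DKO. Of the interferon-stimulated genes, 0 of 20 were called with torin1 in either genotype with all libraries. Without WT passage 11, 10 rose in WT and 6 rose and 1 fell in DKO, and the median over the list was 1.07 and 0.47. *Isg15* was the gene that fell, by 0.65. Of all genes in that fit, 24.3% rose in WT and 24.8% rose in DKO, and 3021 of 15489 fell in DKO.

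Across all 24 libraries, the non-member genes whose level ran closest to the mean of the 10 were *Psme1* (Pearson r = 0.985), *H2-Q4* (r = 0.960), *H2-K2* (r = 0.948), *Slfn8* (r = 0.947) and *Ccl5* (r = 0.939). The mean was taken over the standardised log2 CPM of the 10 genes. Of the members, *Psmb8* followed that mean most closely (r = 0.990) and *Nlrc5* least (r = 0.523). *H2-K1* at 0.815, *Psmb10* at 0.838 and *Tapbp* at 0.846 came next from below. These correlations are descriptions over libraries that share lines, passages and the 3 libraries of WT passage 11.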

How the data were processed

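Messenger RNA was measured in 24 libraries, grouped by the genotype and treatment in the labels. The authors ran nf-core/rnaseq with STAR and Salmon on GRCm38, took account of molecular identifiers and deposited, per gene and per transcript, TPM and estimated counts. All per-sample columns belonged to a library of the series. The authors tested with edgeR and removed a batch with limma. What the batch was is not given in the sources used here, and the labels give a single batch, so none was removed. Deposited estimated counts are not scaled for depth or length and can be fractional, so they were rounded. Deposited TPM entered no test.

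The 10 genes, the lists of partner genes and markers and the separate view of WT passage 11 were chosen with earlier results of these data known. Of 55487 genes, 32018 had a count in any library and 15401 passed filterByExpr with a minimum count of 10 (15489 without WT passage 11). Library sizes were scaled with TMM, with factors of 0.95 to 1.08. The model held 1 mean for each of the 6 groups and was fitted to all libraries with the quasi-likelihood functions of edgeR (version 4.0.16, in its form of edgeR 3, R 4.3.3), giving 18 residual degrees of freedom and a common biological coefficient of variation of 10.7%. Passage 11 was tested with 1 added term per genotype (16 residual degrees of freedom, 5.80%). Without the 3 WT libraries of passage 11, 15 degrees of freedom and 6.55% remained. Benjamini-Hochberg adjustment ran over all genes tested in each contrast. The fits were tested on simulated data, in which libraries were drawn independently. Libraries that share a culture were not covered. Pairs of libraries of 1 group differed by 3.75 to 37.1 times the counting variance (chi-square per degree of freedom, 36 pairs). Thus none was the same library counted again. These values cannot show whether libraries came from separate cultures.

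Named genes are the 10 members, *Psmb5*, *Psmb6*, *Psmb7*, *Irf1*, *Rfx5*, *Ciita*, the interferons, *Isg15*, *Tfeb* and *Tfe3*, the called genes of a list with the largest and smallest fold, and the 5 genes nearest to the members' mean. Other members of a list were named after their values were seen, and some listed genes are not reported here. Coordinates come from GENCODE on GRCm38 and promoters from RefSeq. Alignment of promoters used Biopython 1.88. Alternatives were other scaling, filters, DESeq2 (1.42.0), limma voom (3.58.1), edgeR's newer form, no fold threshold, blocks for replicate number or passage, each library left out, and protein-coding transcripts alone for TPM.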

Additional observations from a re-analysis of the deposited data

Results flagged for a closer look

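Dixon's 95% critical ratio of gap to range for 4 samples was applied to 60 sets of 4 libraries, 1 for each gene and group. In 27 of 60 sets, 1 library lay farther from the other 3 than this ratio allows. In 27 of 27 that library was the WT library of passage 11, and it was the highest. Those libraries were known beforehand to stand apart, and the 10 genes share them, so the count is a description without a test. The share of all genes beyond the ratio was not counted. The ratio was exceeded for 10 of 10 genes under DMSO and under MK-8722 and for 7 under torin1. The ratio under DMSO, MK-8722 and torin1 was 0.910, 0.914 and 0.857 for *H2-K1*, 0.897, 0.892 and 0.848 for *H2-D1* and 0.881, 0.880 and 0.869 for *B2m*. It was 0.929, 0.942 and 0.847 for *Tap1*, 0.893, 0.917 and 0.871 for *Psmb8*, 0.898, 0.987 and 0.832 for *Psmb9* and 0.901, 0.950 and 0.904 for *Nlrc5*. For *Tap2* it was 0.882 and 0.917, for *Tapbp* 0.871 and 0.900, and for *Psmb10* 0.876 and 0.848 under DMSO and MK-8722.

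The rise at passage 11 differed between the genotypes for all 10 genes in edgeR's test of that difference. The log2 difference in DKO compared to WT was -1.08 for *Tapbp*, -1.17 for *Nlrc5*, -1.20 for *Psmb10*, -1.34 for *B2m* and -1.43 for *Tap2*. It was -1.47 for *H2-K1*, -1.48 for *H2-D1*, -2.12 for *Tap1*, -2.21 for *Psmb8* and -2.24 for *Psmb9*.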

How the results depend on the processing

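The calls on passage 11 in WT (10 of 10 higher) and on its difference between the genotypes (10 of 10 lower) held under every alternative run and with each library left out (10 to 10). For passage 11 in DKO the count of 1 became 6 without a filter on counts, 2 with DESeq2's Wald test, 2 with limma voom and 0 with the replicate block, and ran from 0 to 3 with 1 library left out. Leaving out the WT libraries of passage 11 moved torin1 in WT from 1 to 3 genes higher, MK-8722 in WT from 0 to 1, torin1 in DKO from 1 to 3, MK-8722 in DKO from 0 to 2, and DKO against WT from 0 to 7 under DMSO, from 0 to 7 under torin1 and from 2 to 8 under MK-8722. Passages 8 and 9 alone, a setting chosen after seeing the data, with 6 residual degrees of freedom, gave the same 7, 7 and 8. With limma voom DKO against WT had 2, 2 and 4 genes higher under DMSO, torin1 and MK-8722 and 0 lower under DMSO and torin1, without a filter 1 and 2 higher under DMSO and torin1, and with edgeR's newer form 0 lower under DMSO.

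Replicate numbers do not pair the libraries: the correlation of same-numbered libraries' deviations was -0.41 to 0.66, over 0.1 in 13 of 60 pairs, and for libraries of 1 genotype and passage it was 0.02 to 0.66, over 0.1 in 17 of 24. With the replicate block, torin1 raised 3 genes in WT and 2 in DKO, and 2 were higher in DKO under DMSO and 2 under torin1. With passage within genotype as a block, torin1 raised 4 and 4 genes in WT and DKO and MK-8722 raised 2 and 2, and the response to MK-8722 was higher in DKO for 2 genes, *Psmb10* and *Tap1*.

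When single libraries were left out, the count of genes higher was 0 to 4 for torin1 and 0 to 1 for MK-8722 in WT, and 0 to 2 for torin1 in DKO. In DKO against WT it was 0 to 5 under DMSO, 0 to 4 under torin1 and 0 to 4 under MK-8722, and the count lower, which is *Nlrc5*, was 0 to 1 under each. The highest counts came without WT_DMSO replicate 2 (4 for torin1 in WT, 1 for MK-8722, 5 for DKO under DMSO), WT_torin1 replicate 1 (4) and WT_MK-8722 replicate 2 (4), the libraries of passage 11.

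Signs turned as follows, on the log2 scale and under limma voom, the replicate block, no WT passage 11 and passages 8 and 9. For DKO against WT under DMSO, *H2-D1* went from -0.11 to 0.12, 0.063, 0.54 and 0.47 and *Psmb8* from -0.17 to 0.35, 0.17, 1.02 and 0.86. Under torin1 *H2-D1* went from -0.03 to 0.21, 0.035, 0.66 and 0.52 and *Psmb8* from -0.02 to 0.46, 0.10, 1.07 and 0.94. Under MK-8722 *Psmb9* went from -0.40 to 0.18 (voom), 0.90 and 1.05. With 1 library left out, DKO against WT ran from -0.30 to 0.57 for *H2-D1* and -0.46 to 1.06 for *Psmb8* under DMSO, from -0.23 to 0.65 and -0.29 to 1.07 under torin1 and from -0.18 to 0.71 and -0.24 to 1.32 under MK-8722, where *Psmb9* ran from -0.68 to 0.91. *Psmb9* with torin1 in WT ran from -0.58 to 1.89, *Tap1* with MK-8722 in WT from -0.84 to 1.41, and the response to MK-8722 in DKO compared to WT from -0.62 to 1.64 for *Tap1* and -0.22 to 0.78 for *Psmb10*. The highest value of each of these ranges came without a WT library of passage 11. The cause was not tested. *Psmb9* rests on as few as 48 counts.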
